A study of Caenorhabditis elegans with 16 samples.

Results

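The 46 genes described here are the protein-coding genes of the WBcel235 assembly named *grl*, *grd*, *hog* or *qua* with a number, except *grd-3*, *grd-10* and *grd-13*, out of 19983 protein-coding genes with a measured GATC fragment. They comprise 31 ground-like genes (*grl*), 13 groundhog genes (*grd*), *hog-1* and *qua-1*, and were chosen by name. RPB-6 occupancy was profiled by targeted DamID (TaDa), in which a Dam methylase fused to an RNA polymerase subunit marks GATC sites of the transcribed genes of a chosen cell type. The *dam:rpb-6* fusion (seam cell strain MBA698, hypodermis strain MBA688) was compared with *dam:NLS-GFP* (seam cell strain MBA692, hypodermis strain MBA693), which records accessible chromatin. Expression in seam cells was driven by *srf-3i1*, an enhancer from an intron of *srf-3* joined to a minimal *pes-10* promoter, and in the hypodermis by *dpy-7syn1*, a synthetic form of the *dpy-7* promoter with altered bases beside its GATA sites. Each fusion was a single-copy transgene in 1 strain, and each cell type was sampled at L2 (24 h after seeding) and at L4 (48 h), with 2 replicates of each fusion. All 16 samples were DNA of whole animals, so the transgene promoter alone assigns the signal to a cell type, and a gene used in fewer cells cannot be told apart from a gene used less per cell. RPB-6 is part of all nuclear RNA polymerases.

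Worms have no clear orthologue of the hedgehog ligand but carry large families of hedgehog-related genes. Groundhog and warthog proteins have a family-specific secreted amino-terminal domain, which in many of them is followed by the autoprocessing Hog domain that they share with hedgehog. Ground-like proteins have a short cysteine-rich domain related to that of groundhog proteins and lack the Hog domain. QUA-1, the sole quahog protein, carries a Hog domain and is needed for moulting, and HOG-1 consists largely of a Hog domain. Many of these genes are used in epithelia that make cuticle, in support cells of sense organs and in neurons, and several ground-like proteins are found in the matrix that precedes or forms the cuticle.

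Occupancy of a gene is the mean log2(*dam:rpb-6/dam:NLS-GFP*) score over the GATC fragments that overlap its body, weighted by the overlapped length. A value of 1 is a doubling over the control, and a gene is called occupied below when both replicates of a group lay above 1. Read numbers were not part of these ratios, and the depth and counting error of a value are therefore unknown. The members are short, from 519 to 9002 bp, and held 1 to 43 fragments each with a median of 5, against 7 over all genes, so that a member's value often rests on few fragments.

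The fragments are shown first, because they are what was measured. The following run within the bodies of 5 members that stood high in at least 1 group, and each is, of the fragments of at most 300 bases that lie wholly within the gene, the one with the highest mean in the L2 hypodermis. They are written 5′ to 3′ on the strand of the gene from the RefSeq WBcel235 sequence, with the GATC sites at which Dam acts in capitals.
*grl-21*, chrIV:10737755-10737955: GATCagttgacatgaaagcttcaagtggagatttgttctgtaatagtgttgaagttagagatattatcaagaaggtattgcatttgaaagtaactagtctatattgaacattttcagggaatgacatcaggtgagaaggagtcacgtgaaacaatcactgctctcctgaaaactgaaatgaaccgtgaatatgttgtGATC
*grl-4*, chrIV:7310181-7310296: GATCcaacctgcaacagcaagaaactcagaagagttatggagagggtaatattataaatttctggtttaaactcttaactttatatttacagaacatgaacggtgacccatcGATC
*grl-10*, chrV:7775230-7775436: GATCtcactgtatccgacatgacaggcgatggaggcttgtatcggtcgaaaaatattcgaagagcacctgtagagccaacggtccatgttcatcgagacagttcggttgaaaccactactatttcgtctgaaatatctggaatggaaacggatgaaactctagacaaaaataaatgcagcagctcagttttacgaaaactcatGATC
*grl-5*, chrV:4413237-4413395: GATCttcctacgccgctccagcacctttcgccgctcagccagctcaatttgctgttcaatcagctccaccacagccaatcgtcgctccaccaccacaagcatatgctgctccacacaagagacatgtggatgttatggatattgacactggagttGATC
*qua-1*, chrII:8201152-8201363: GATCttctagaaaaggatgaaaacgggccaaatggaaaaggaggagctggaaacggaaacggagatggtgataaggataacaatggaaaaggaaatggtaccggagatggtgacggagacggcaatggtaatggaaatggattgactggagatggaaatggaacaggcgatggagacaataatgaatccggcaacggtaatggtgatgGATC
The *grl-10*, *grl-5* and *qua-1* fragments lie wholly in coding sequence, the *grl-21* fragment holds 158 coding and 43 intronic bases, and the *grl-4* fragment holds 69 coding and 47 intronic bases. In the L2 hypodermis, the replicates of these fragments scored 4.01 and 3.52 for *grl-21*, and 2.71 and 4.22 for *grl-4*. The replicates were 2.97 and 4.25 for the *grl-10* fragment. They were 2.86 and 2.3 for that of *grl-5* and 3.66 and 3.47 for that of *qua-1*. The *grl-21* fragment scored -0.66 and 2.50 in L2 seam cells and 0.31 and 0.72 at L4, below both hypodermal replicates of the same stage in each case. The fragment was picked by its L2 hypodermal score, which favours the hypodermis in this comparison, so no support is drawn from it.

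Occupancy was found in a small part of the family. Of the 46 members, 10 were occupied in at least 1 group, and these were the ground-like genes *grl-4*, *grl-5*, *grl-7*, *grl-10*, *grl-16* and *grl-21*, the groundhog genes *grd-1*, *grd-5* and *grd-14*, and *qua-1*. The L2 hypodermis held all 10, or 21.7% of the members, where 5.3% of all genes were occupied. In L4 seam cells, 8 members (17.4%) were occupied against 3.78% of all genes, and in the L4 hypodermis 7 members (15.2%) against 3.16%. The order of the hypodermal stages depended on the controls. With replicate 1 against control 2 and replicate 2 against control 1, 8 members were occupied in the L2 hypodermis and 10 at L4. The shares of all genes were not computed for that pairing. In L2 seam cells, only *grl-10* and *grl-16* (4.35%) were occupied, against 1.48% of all genes. These 2 genes were occupied in all 4 groups. Against control 2 in place of control 1, however, replicate 1 of *grl-16* in L2 seam cells was 0.77, below 1. The 8 members occupied in seam cells at either stage were all occupied in the hypodermis as well, and *grl-21* and *grd-1* were occupied in the hypodermis without reaching 1 in both seam cell replicates at either stage. No member was occupied in seam cells alone. The shares of all genes occupied in both cell types or in 1 alone were not computed for comparison. The median occupancy of the members was near that of all genes, at 0.10 in L2 seam cells, 0.05 in L4 seam cells, 0.05 in the L2 hypodermis and 0.03 in the L4 hypodermis. The median over all genes was 0.06, -0.01, -0.02 and -0.02 in the same order.

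**Figure D1:**
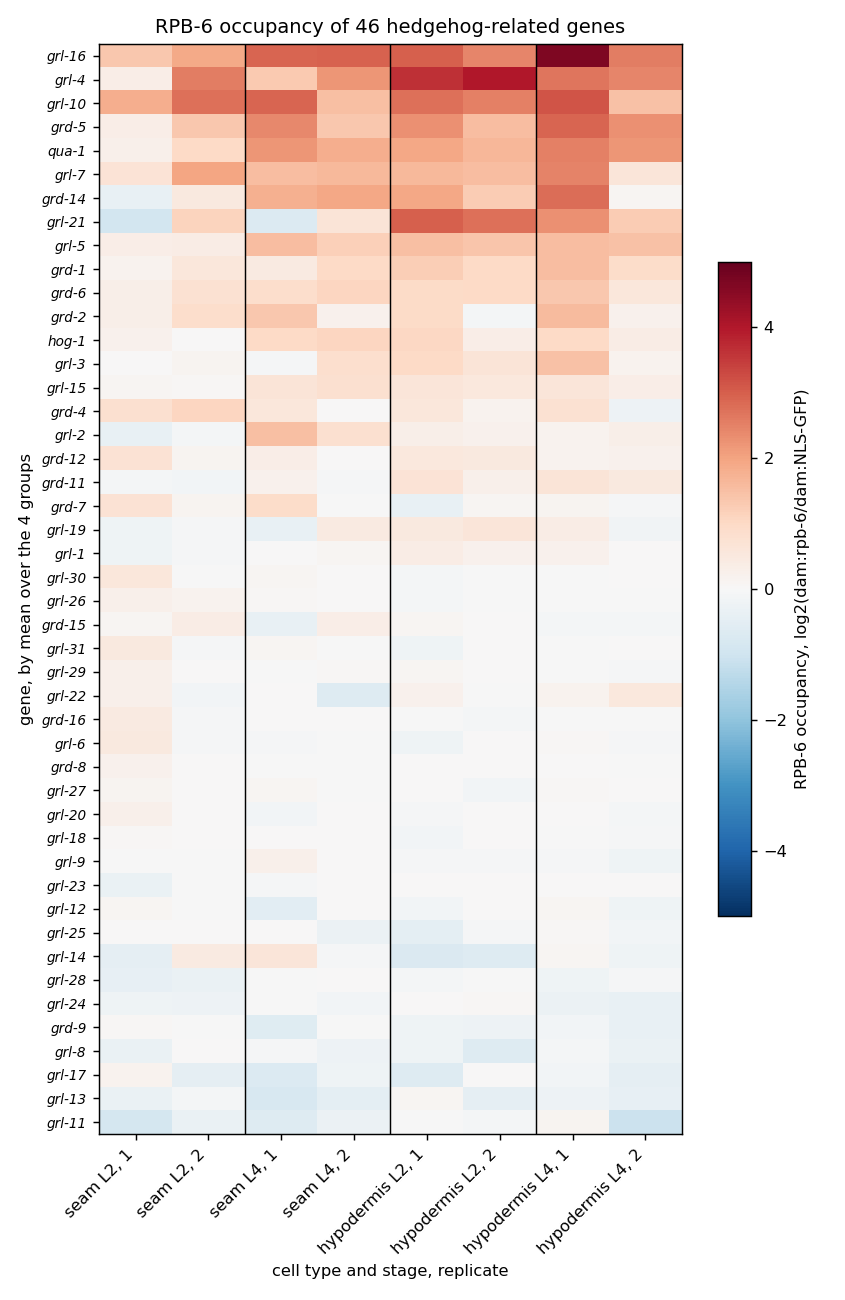
RPB-6 occupancy (colour, log2 scale, red above 0 and blue below) of the 46 members (rows, by their mean over the 4 groups) in each of the 8 replicates (columns). Signal is concentrated in the upper rows, where the 10 occupied members lie, and most of the other rows are near 0 in every column.

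The replicates of L2 seam cells agreed least across the members. All 10 occupied members scored higher in replicate 2 than in replicate 1 there, and across the 46 members the replicates correlated with r = 0.546, against 0.808 in L4 seam cells, 0.95 in the L2 hypodermis and 0.844 in the L4 hypodermis. These correlations are across genes, which are not independent, and describe the libraries. In replicate 2 of L2 seam cells, 8 members (17.4%) lay above 1, against 6.52% of all genes, and in replicate 1 it was 2 (4.35%) against 3.19%. In the L4 hypodermis the order was the opposite, with replicate 1 above replicate 2 in all 10 occupied members and 14 members (30.4%) above 1 in replicate 1, against 7.48% of all genes, and 7 (15.2%) in replicate 2, against 3.69%.

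Within limma, which estimates the spread over all 8 replicates and adjusts p over all genes, 5 members lay above 0 in L4 seam cells (*grl-2*, *grl-5*, *grl-15*, *grl-16* and *qua-1*), where 2.56% of all genes did. In the L2 hypodermis it was 6 members (*grl-4*, *grl-5*, *grl-15*, *grl-16*, *grd-1* and *qua-1*) against 5.33% of all genes. In the L4 hypodermis it was 3 (*grl-5*, *grl-16* and *qua-1*) against 1.49%. In L2 seam cells no member passed the adjusted threshold, where 0.2% of all genes did, and at an unadjusted p under 0.05 it was 10 members with a mean above 0 (21.7%), against 9.71% of all genes, and 2 with a mean below 0 (*grl-24* and *grl-28*, 4.35%), against 3.47%. Those with a mean above 0 at an unadjusted p under 0.05 were 13 members (28.3%) in L4 seam cells against 11.9% of all genes, 15 (32.6%) in the L2 hypodermis against 15.2%, and 13 (28.3%) in the L4 hypodermis against 10.1%. With either replicate of the L2 hypodermis left out, no member passed the adjusted threshold in any group, although the means of the other groups are the same in that fit, such as 1.38 for *grl-5* in L4 seam cells (limma, adjusted p = 0.0515). With either replicate of L4 seam cells left out, none passed in that group.

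The ground-like genes gave the highest values. In *grl-4* (F42C5.7, chrIV:7309838-7310760), occupancy was 0.33 and 2.54 in the replicates of L2 seam cells and 1.30 and 2.22 at L4. It was 3.65 and 4.01 in the L2 hypodermis and 2.66 and 2.44 at L4. The hypodermal replicates at L2 thus lay above all others of this gene, and their mean of 3.83 ± 0.26 (SD, n = 2) was higher than that of 99.8% of all genes and differed from 0 (limma, adjusted p = 0.0249). All 6 of its fragments scored above 1 in both replicates there, against 3 in L4 seam cells.

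In *grl-21* (ZC168.5, chrIV:10737474-10738191), the seam cell values were -0.91 and 1.10 at L2 and -0.67 and 0.64 at L4. The hypodermal values were 2.98 and 2.74 at L2 and 2.27 and 1.28 at L4. The cell types did not overlap at either stage, and *grl-21* was the member with the greatest hypodermal excess at both stages. GRL-21 has been linked to lipid metabolism in the worm. The means were 2.86 ± 0.17 (SD, n = 2) in the L2 hypodermis and 1.78 ± 0.71 (SD, n = 2) at L4, of which neither passed the test against 0 (limma, adjusted p = 0.0531 and 0.216).

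In *grl-16* (Y65B4BR.6, chrI:572173-575120), occupancy was 1.34 and 1.88 in L2 seam cells, 2.92 and 2.93 in L4 seam cells, 3.0 and 2.43 in the L2 hypodermis and 4.65 and 2.57 in the L4 hypodermis. Of its 8 fragments, 7 scored above 1 in both replicates in L4 seam cells and again in the L2 hypodermis. The mean passed the test against 0 in L4 seam cells (2.92 ± 0.01, SD, n = 2, adjusted p = 0.0486), in the L2 hypodermis (2.72 ± 0.40, adjusted p = 0.0422) and in the L4 hypodermis (3.61 ± 1.47, adjusted p = 0.0437, all limma). The coding genes on either side, *ceh-9* and F56A6.5, lie more than 5 kb away, with means of at most 0.18.

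In *grl-10* (C26F1.5, chrV:7774545-7775759), the values were 1.80 and 2.77 in L2 seam cells, 2.92 and 1.5 at L4, 2.76 and 2.53 in the L2 hypodermis and 3.13 and 1.46 at L4. The ranges of the groups overlapped, and no mean passed the test against 0 (limma, adjusted p from 0.0526 to 0.171). Its 3′ end overlaps *rpl-39*, a gene for a protein of the large ribosomal subunit, by 18 bp on the opposite strand. The mean of *rpl-39* was between 1.09 and 1.54 in the 4 groups. In the fragments that overlap no other coding gene, the means of *grl-10* were 1.95 in L2 seam cells, 1.82 in L4 seam cells, 2.37 in the L2 hypodermis and 2.20 in the L4 hypodermis, all lower than over the whole gene.

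*grl-5* (Y47D7A.5, chrV:4412748-4414663) had replicates that lay close together. They were 0.35 and 0.36 in L2 seam cells, 1.54 and 1.21 in L4 seam cells, 1.51 and 1.37 in the L2 hypodermis and 1.53 and 1.45 in the L4 hypodermis. The seam cell values at L2 lay below all 6 others. Of its 8 fragments, 5 were above 1 in both replicates of the hypodermis at either stage and 3 in L4 seam cells, against 0 in L2 seam cells. The 3 higher means, 1.38 ± 0.23, 1.44 ± 0.10 and 1.49 ± 0.06 (SD, n = 2), passed the test against 0 (limma, adjusted p = 0.0151, 0.00918 and 0.0136).

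In *grl-7* (T02E9.2, chrV:11344828-11347012), which encodes a ground-like protein found in the cuticle, occupancy was 0.70 and 1.97 in L2 seam cells and 1.55 and 1.61 at L4. Against control 2 in place of control 1, replicate 2 of L4 seam cells was 0.60, below 1. The hypodermal values were 1.64 and 1.56 at L2 and 2.47 and 0.61 at L4. The 4 means lay between 1.34 and 1.60, closer to each other than the replicates of L2 seam cells or of L4 hypodermis. None passed the test against 0 (limma, adjusted p from 0.135 to 0.347).

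**Figure D2:**
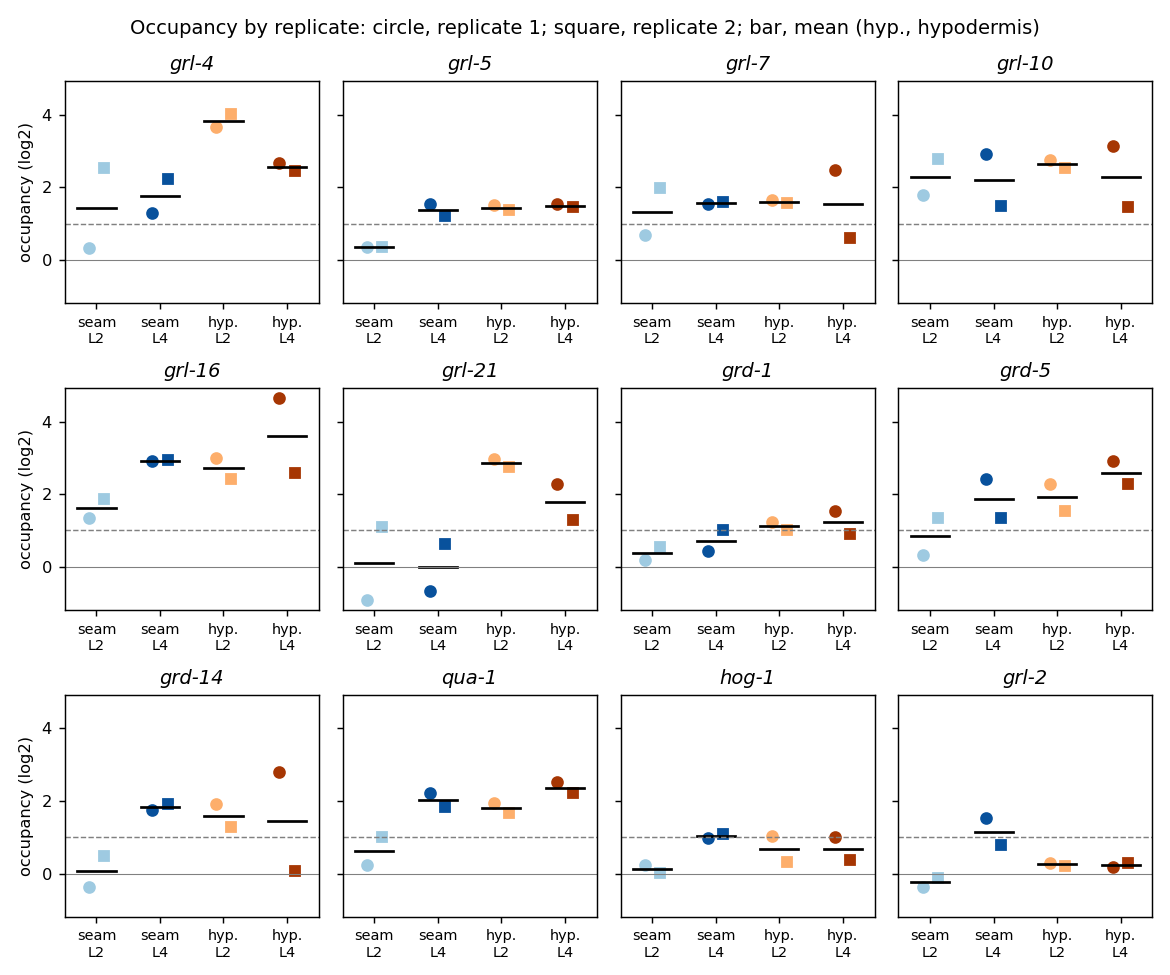
Occupancy (log2 scale) in each replicate of the 10 occupied members, *hog-1* and *grl-2*, by cell type and stage; circles are replicate 1, squares replicate 2, black bars the mean, and the dashed line the value of 1. In *grl-21* both hypodermal replicates lie above both seam cell replicates at each stage, and in *grl-5* the seam cell values at L2 lie below all others.

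Of the other 25 ground-like genes, *grl-2* and *grl-15* alone lay above 0 in a group at the adjusted threshold. *grl-2* (T16G1.8, chrV:12945075-12946858), whose promoter is widely used as a marker of the excretory duct and pore, had values of -0.37 and -0.11 in L2 seam cells and 1.52 and 0.79 at L4. In the hypodermis it had 0.30 and 0.22 at L2 and 0.18 and 0.29 at L4. The seam cell replicates at L4 were above all others, and their mean was 1.15 ± 0.51 (SD, n = 2, limma, adjusted p = 0.0409). Of its 5 fragments, 2 scored above 1 in both of these replicates, and it overlaps T16G1.9 by 61 bp on the opposite strand, whose mean there was 0.10. *grl-15* (Y75B8A.20, chrIII:12232632-12236014) had 0.10 and 0.07 in L2 seam cells, 0.65 and 0.80 at L4, 0.62 and 0.54 in the L2 hypodermis and 0.61 and 0.34 at L4. It passed the test against 0 in L4 seam cells (adjusted p = 0.0244) and in the L2 hypodermis (adjusted p = 0.0256, limma), at a level well under a doubling. In both of these groups, 1 of its 5 fragments was above 1 in both replicates, and it overlaps Y75B8A.19 by 27 bp.

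The other ground-like genes included *grl-18*, a marker of socket glia, whose means were between -0.07 and 0.03, and the 5 genes *grl-27* to *grl-31*. Of these, *grl-28* to *grl-31* lie together at chrV:3551346-3557778, and *grl-27* lies apart at chrV:3575055-3575859. The means of these 5 ranged from -0.36 in *grl-28* in L2 seam cells to 0.28 in *grl-30* in the same group. In *grl-27*, 32.8% of the words of 50 bases recur elsewhere in the genome, so reads there may be placed ambiguously. In all other members this share was at most 7.25%. Over the 36 members that were occupied in no group, the means ranged from -0.60 to 0.94 in L2 seam cells, from -0.64 to 1.15 in L4 seam cells, from -0.68 to 0.98 in the L2 hypodermis and from -0.48 to 0.94 in the L4 hypodermis. Their medians were 0.05, 0.02, -0.03 and -0.01 in the same order. The occupied members had a median length of 1565 bp and the others of 1726 bp, with a median of 7 and 4 fragments, respectively.

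Of the 13 groundhog members, *grd-5* (F41E6.2, chrV:8619032-8619870) had the highest mean over the gene body in each group but L2 seam cells, where *grd-4* was higher. Its values were 0.32 and 1.35 in L2 seam cells, 2.41 and 1.34 in L4 seam cells, 2.29 and 1.53 in the L2 hypodermis and 2.90 and 2.29 in the L4 hypodermis. The score was highest in the fragment at its 3′ end, which it shares with *idpc-2*, 54 bp further on and on the opposite strand. That fragment reached 5.04 in the L2 hypodermis, and *idpc-2* itself had means of 2.55 in L4 seam cells and 2.23 and 2.10 in the L2 hypodermis and L4. In the fragments of *grd-5* alone the means were 1.47 in L4 seam cells, 1.47 in the L2 hypodermis and 2.44 in the L4 hypodermis, of which those in L4 seam cells and the L2 hypodermis are below the 1.84 and 1.59 of *grd-14*, which shares no fragment. All 7 fragments were above 1 in both replicates in the L4 hypodermis, but the mean of 2.59 ± 0.43 (SD, n = 2) missed the threshold (limma, adjusted p = 0.0523).

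*grd-14* (T01B10.2, chrX:8500021-8501037) had -0.36 and 0.48 in L2 seam cells and 1.76 and 1.93 at L4. Against control 2 in place of control 1, *grd-14* had 0.23 in replicate 2 of L4 seam cells, below 1. In the hypodermis it had 1.92 and 1.27 at L2 and 2.79 and 0.08 at L4, so that the last group had the widest spread. Against control 1 in place of control 2, hypodermal replicate 2 of *grd-14* was 0.73 at L2, below 1, and 1.04 at L4. Its neighbour on the same strand, *grd-4*, starts 184 bp after its end and had its highest mean in L2 seam cells (0.81 and 1.07), where *grd-14* was near 0. *grd-1* (R08B4.1, chrX:11109440-11115887) had 0.19 and 0.55 in L2 seam cells, 0.44 and 1.00 at L4, 1.23 and 1.00 in the L2 hypodermis and 1.55 and 0.91 at L4. Its mean in the L2 hypodermis was 1.12 ± 0.16 (SD, n = 2, limma, adjusted p = 0.0475), with 8 of 25 fragments above 1 in both replicates. Of the other 10 groundhog genes, *grd-6* came nearest to being occupied, with 0.88 and 1.09 in L4 seam cells and 0.97 and 0.99 in the L2 hypodermis. The longest member, *grd-11* (9002 bp, 43 fragments), was at -0.11 and -0.12 in L2 seam cells and 0.21 and -0.05 at L4, and at 0.68 and 0.24 in the L2 hypodermis and 0.64 and 0.50 at L4, with the hypodermal values above the seam cell values at each stage.

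*qua-1* (T05C12.10, chrII:8198803-8204004) was occupied in all groups but L2 seam cells. Its values were 0.25 and 1.00 in L2 seam cells, 2.22 and 1.83 in L4 seam cells, 1.95 and 1.67 in the L2 hypodermis and 2.51 and 2.21 in the L4 hypodermis. Both seam cell values at L2 were below all others. The means of 2.03 ± 0.28, 1.81 ± 0.20 and 2.36 ± 0.22 (SD, n = 2) in the 3 occupied groups passed the test against 0 (limma, adjusted p = 0.0217, 0.0181 and 0.0243). Of its 33 fragments, 10 in L4 seam cells, 11 in the L2 hypodermis and 14 in the L4 hypodermis were above 1 in both replicates, and the highest fragment means were 5.06, 4.28 and 4.96. No fragment of *qua-1* overlaps another coding gene, and the genes on either side, T05C12.9 and *col-76*, had means of at most 0.08 in these 3 groups.

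*hog-1* (W06B11.4, chrX:5851953-5854263) was lower. It had 0.23 and 0.03 in L2 seam cells and 0.99 and 1.09 at L4, and 1.03 and 0.33 in the L2 hypodermis and 1.00 and 0.37 at L4. The seam cell replicates at L4 were the closest to each other, and their mean of 1.04 ± 0.08 (SD, n = 2) did not pass the test against 0 (limma, adjusted p = 0.0715). Of its 6 fragments, 3 were above 1 in both replicates of that group, and the gene overlaps *atat-2* by 19 bp, whose mean there was 0.48.

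**Figure D3:**
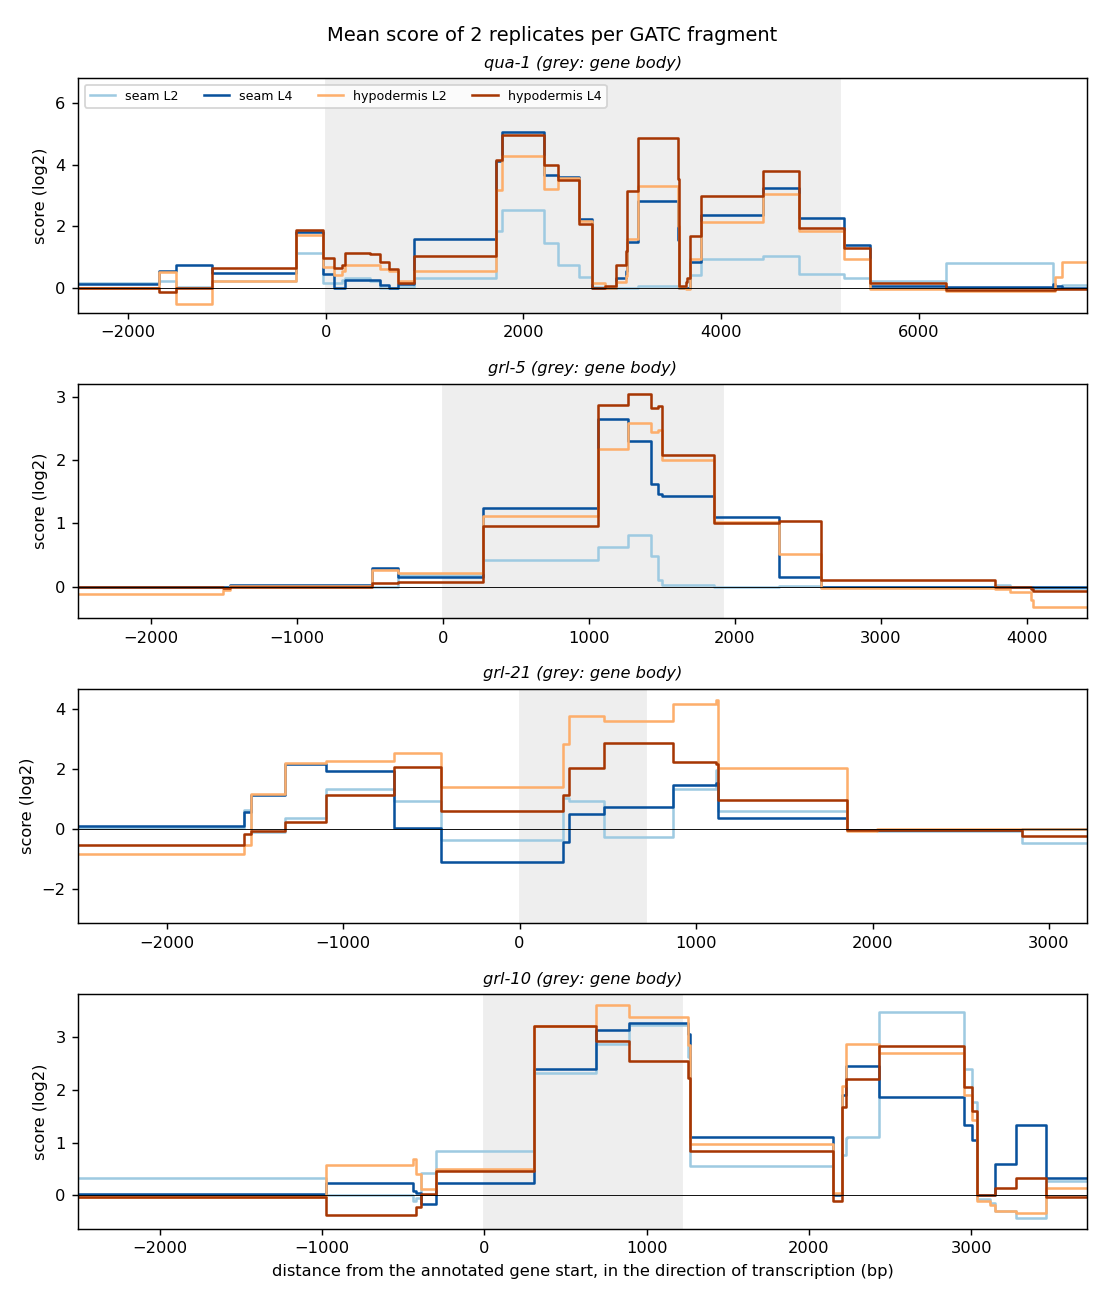
Mean score of the 2 replicates (log2 scale) of each GATC fragment against the distance from the annotated gene start (bp, in the direction of transcription) for *qua-1*, *grl-5*, *grl-21* and *grl-10*, with gene bodies in grey and 1 line for each cell type and stage. In *qua-1* the signal rises within the gene body to 5.06 in L4 seam cells, and at *grl-21* the hypodermal signal at L2 goes on past the 3′ end of the gene.

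Neighbouring genes carried signal at some of these loci. Of the 10 occupied members, 4 had an occupied coding gene directly next to them (the share over all genes was not computed). These were *grl-4* with F42C5.6 and the ribosomal protein gene *rps-8*, *grl-10* with *rpl-39*, *grl-21* with *ssp-34*, a gene of a family known from sperm, and *grd-5* with *smk-1* and *idpc-2*. F42C5.6 starts 763 bp beyond the 3′ end of *grl-4* on the same strand and had 1.68 and 1.99 in the L2 hypodermis, where *grl-4* was highest, and was not occupied in the other groups. *rps-8* lies 2197 bp from *grl-4* on its other side and was occupied in all 4 groups. *smk-1*, 3188 bp from *grd-5*, was occupied in the L2 hypodermis alone. At *grl-21*, *ssp-34* lies 87 bp beyond the 3′ end on the opposite strand and had 3.80 and 4.26 in the L2 hypodermis and 2.95 and 1.77 at L4. It therefore scored higher in the L2 hypodermis than *grl-21* itself. Without strand, the signal of converging genes cannot be told apart in the shared fragment. In the 2 fragments of *grl-21* that overlap no other coding gene, the mean was 3.61 in the L2 hypodermis and 1.9 at L4. The other 6 occupied members, *grl-5*, *grl-7*, *grl-16*, *grd-1*, *grd-14* and *qua-1*, had no occupied direct neighbour in any group.

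To compare the cell types, seam cells were set against the hypodermis at each stage. At L2 the largest differences were toward the hypodermis. *grl-21* was lower in seam cells by a log2 difference of -2.76 ± 0.81 (SE, limma, adjusted p = 0.365) and *grl-4* by -2.39 ± 0.75 (adjusted p = 0.39). *grd-14* followed with -1.54 ± 0.90 (adjusted p = 0.6). In the direction of seam cells the largest differences were 0.66 ± 0.37 in *grl-14*, 0.57 ± 0.39 in *grd-4* and 0.56 ± 0.38 in *grd-7* (limma, adjusted p from 0.588 to 0.616). *grl-14* had -0.46 and 0.44 in seam cells against -0.71 and -0.64 in the hypodermis, so that this excess was between values below or around 0. *grd-7* had 0.72 and 0.13 in seam cells and -0.38 and 0.10 in the hypodermis. No gene of the genome passed the adjusted threshold (0%), and so no member did. At an unadjusted p under 0.05, 9 members (19.6%) were lower in L2 seam cells, against 5.49% of all genes, and *grl-26* alone (2.17%) was higher, against 4.88% of all genes. The 9 were *grl-1*, *grl-4*, *grl-5*, *grl-15*, *grl-21*, *grl-24*, *grl-28*, *grd-11* and *qua-1*. The smallest of these unadjusted values was that of *grl-5*, with a difference of -1.09 ± 0.13 (SE, limma, adjusted p = 0.147). *qua-1* had a difference of -1.19 ± 0.30 (SE, limma, adjusted p = 0.313). In *grl-24* and *grl-28* both cell types were near or below 0. All 9 rest on the same L2 seam cell replicates, in which replicate 1 was well below replicate 2 for *grl-4*, *grl-21* and *qua-1*, while the replicates of the other 6 lay closer together.

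At L4 the cell types were closer. *grl-21* was again the most hypodermal member, at -1.79 ± 0.81 (SE, limma, adjusted p = 1), followed by *grl-4* at -0.79 ± 0.75 and *grd-5* at -0.72 ± 0.55 (adjusted p = 1 for each). The greatest seam cell excess was that of *grl-2*, at 0.92 ± 0.25 (SE, limma, adjusted p = 0.791), and here the replicates of the cell types did not overlap. *grd-7* came next with 0.42 ± 0.38, from 0.93 and -0.02 in seam cells and 0.12 and -0.05 in the hypodermis. *grd-14* followed with 0.41 ± 0.90, a difference that turned to -0.94 without replicate 2 of the L4 hypodermis. No gene passed the adjusted threshold (0%). At an unadjusted p under 0.05, *grl-2* and *grl-24* (4.35%) were higher in seam cells, against 2.57% of all genes, and *grd-11* (2.17%) was lower, against 2.25%. These shares are near the background.

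**Figure D4:**
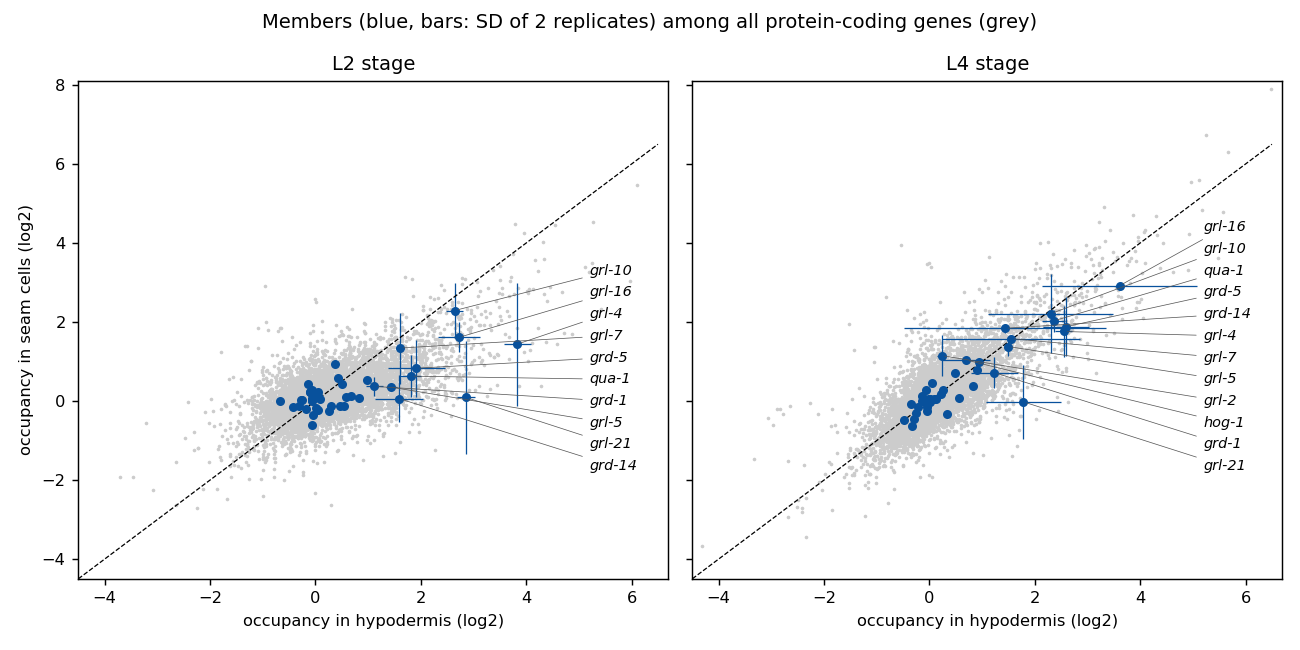
Mean occupancy in seam cells against mean occupancy in the hypodermis (log2 scales) at L2 (left) and L4 (right), with the 46 members in blue, error bars showing the SD of 2 replicates for members above 1 on either axis, all protein-coding genes in grey and the dashed line marking equal values. At L2 the 10 named members lie below the dashed line, and at L4 *grl-21* is the member farthest below it. A member was named where either mean was above 1. Those named through the hypodermal mean alone therefore lie below the line by that rule.

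Between stages, seam cells showed the larger differences. From L2 to L4, *grd-14* differed by 1.79 ± 0.90, *qua-1* by 1.4 ± 0.30 and *grl-2* by 1.39 ± 0.25 (SE, limma, adjusted p = 0.658, 0.401 and 0.354). With the controls used, both L4 replicates exceeded both L2 replicates in all 3 genes. Against control 2, however, L4 replicate 2 of *grd-14* was 0.23, below the 0.48 of L2 replicate 2. The members with the lowest difference were *grd-4* at -0.65 ± 0.39, *grl-13* at -0.43 ± 0.23 and *grl-22* at -0.37 ± 0.28 (SE, limma, adjusted p from 0.668 to 0.722). *grl-13* had -0.32 and -0.09 at L2 and -0.80 and -0.48 at L4, and *grl-22* had 0.24 and -0.15 and then -0.00 and -0.66, so neither gene stood above 0.25 at either stage. No gene passed the adjusted threshold (0%). At an unadjusted p under 0.05, 6 members (13%) were higher at L4 in seam cells, against 3.31% of all genes, and these were *grl-2*, *grl-5*, *grl-15*, *grl-28*, *hog-1* and *qua-1*. None was lower (0%), against 5.5% of all genes. The difference was 1.02 ± 0.13 in *grl-5* (SE, limma, adjusted p = 0.318), 0.64 ± 0.12 in *grl-15* (adjusted p = 0.371) and 0.91 ± 0.31 in *hog-1* (adjusted p = 0.506). The comparison shares its L2 samples with that of the cell types at L2, so the members that both have in common are not counted as separate evidence. Higher values at L4 in seam cells were not particular to the members. They were also seen in 7 of 9 seam cell markers and 5 of 6 hypodermal markers.

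In the hypodermis, *grl-4* and *grl-21* had the largest differences, both toward L2, at -1.28 ± 0.75 and -1.08 ± 0.81 (SE, limma, adjusted p = 1 for each). *grl-19* followed at -0.47 ± 0.32, with 0.50 and 0.59 at L2 and 0.36 and -0.19 at L4. Toward L4 the largest were *grl-16* at 0.89 ± 0.69, *grd-5* at 0.68 ± 0.55 and *grl-14* at 0.61 ± 0.37 (adjusted p = 1 for each). The difference of *grl-16* rested on replicate 1 at L4 and was -0.15 without it. No gene passed the adjusted threshold (0%). At an unadjusted p under 0.05 no member was higher at L4 (0%), against 0.931% of all genes, and *grl-24* was lower (2.17%), against 3.45%. *grl-24* lies at or below 0.07 in every replicate. It lies wholly within the coding gene *gba-3*, on the opposite strand, and has no fragment of its own, so the signals of these genes cannot be told apart.

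The test of whether the stage difference itself differed between cell types likewise found no gene at the adjusted threshold (0%), and 5 members (10.9%) against 5.89% of all genes at an unadjusted p under 0.05. These were *grl-2*, *grl-5*, *grl-15*, *grl-24* and *grl-28*. In *grl-2* the L4 minus L2 difference was larger in seam cells than in the hypodermis by 1.42 ± 0.35 (SE, limma, adjusted p = 0.778). In *grl-5* it was larger by 0.97 ± 0.18 (adjusted p = 0.768). An exact permutation test of 2 replicates against 2 cannot give a 2-sided p below 0.333, so no single gene could be tested in that way.

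Other genes of the hedgehog-related pathway are given for comparison. Of 42 other genes, which are 10 warthog genes, *grd-3*, *grd-10*, *grd-13*, *ptc-1*, *ptc-3*, 24 patched-related genes (*ptr*), *ptd-2*, *che-14* and *tra-1*, the number occupied was 5 in L2 seam cells, 12 in L4 seam cells, 14 in the L2 hypodermis and 8 in the L4 hypodermis. Their median occupancy was 0.34, 0.55, 0.64 and 0.49 in the same order, above that of the members in each group. The neighbouring groundhog genes *grd-3*, *grd-10* and *grd-13* were occupied in seam cells alone. The highest group mean was 3.5 for *grd-3* and 3.46 for *grd-13*, both in L4 seam cells, where *grd-10* had 3.40, and no mean of these genes exceeded 0.02 in the hypodermis. Among the members no gene had this pattern. *wrt-10*, a warthog gene, had 1.28 and 1.97 in L2 seam cells and 3.33 and 2.90 at L4. In the hypodermis *wrt-10* had 1.93 and 1.10 at L2 and 2.21 and 1.94 at L4. Among the sterol-sensing receptors, *ptc-3*, a patched homologue, had 2.52 and 2.36 in L4 seam cells and 2.86 and 2.63 in the L4 hypodermis. *ptr-4*, a patched-related gene that acts in moulting, had 2.97 and 2.57 in L4 seam cells and 2.47 and 1.65 in the L2 hypodermis.

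Markers of the profiled and of other cell types bear on these values. None of 9 seam cell markers was occupied in the hypodermis at either stage, and 5 were in L4 seam cells. In L2 seam cells 3 were, namely *grd-3*, *grd-10* and *grd-13*. Of 6 hypodermal markers, *dpy-7*, *rol-6* and *sqt-3* were also occupied in seam cells at both stages. Of 23 markers of muscle, intestine, neurons, pharynx, germline, glia and excretory cells, *snb-1* in the L2 hypodermis was the sole gene occupied in any group. The 4 muscle markers had means from 0.15 to 1.84 in L2 seam cells and from -1.25 to 0.14 in the other groups. Their L2 seam cell replicates were 0.84 and 2.84 in *unc-54*, 0.68 and 1.52 in *myo-3*, 0.17 and 1.60 in *unc-15*, and -0.69 and 0.98 in *hlh-1*. Replicate 2 was thus the higher in each, as in all occupied members. Whether signal of other cells entered the seam cell values of the members at L2 was not tested.

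The 250 bases before the annotated start of each gene were searched for the GATA-type words TGATAA and AGATAG on both strands (TTATCA and CTATCT on the other), since the *dpy-7syn1* promoter carries altered bases beside such sites. TGATAA was found before 9 of 46 members (19.6%), against 26.8% of all genes, and before 3 of the 10 occupied ones (*grl-4*, *grd-1* and *qua-1*). AGATAG was found before 5 of 46 (10.9%), against 7.85% of all genes, and *grd-5* was the sole occupied gene among them. The 2 members with the greatest hypodermal excess are shown, 5′ to 3′ on the strand of the gene from the RefSeq WBcel235 sequence, with matches in capitals.
*grl-4*, chrIV:7310761-7311010, minus strand: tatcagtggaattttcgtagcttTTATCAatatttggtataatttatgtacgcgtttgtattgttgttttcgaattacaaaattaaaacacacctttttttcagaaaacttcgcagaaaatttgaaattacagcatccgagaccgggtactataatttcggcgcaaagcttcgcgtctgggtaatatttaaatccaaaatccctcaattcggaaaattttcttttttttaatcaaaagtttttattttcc
*grl-21*, chrIV:10737224-10737473, plus strand: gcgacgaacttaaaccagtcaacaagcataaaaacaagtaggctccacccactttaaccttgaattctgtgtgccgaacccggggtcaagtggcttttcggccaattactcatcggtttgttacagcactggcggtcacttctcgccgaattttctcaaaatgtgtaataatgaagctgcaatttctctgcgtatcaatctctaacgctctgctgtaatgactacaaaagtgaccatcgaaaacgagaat
The window of *grl-4* holds 1 match and that of *grl-21* holds 0, although both genes had their highest occupancy in the L2 hypodermis. A match describes the letters of the window and not the binding of a factor.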

How the data were processed

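The submitters' processing notes name WBcel235, Bowtie2 2.3.4 and SAMtools 1.9. The authors deposited, for each of 16 pairs of a *dam:rpb-6* replicate and a control, the log2 ratio per GATC fragment that damidseq_pipeline gives after its own normalisation. Each profile held 269057 fragments, all of whose ends were checked to lie at GATC. Depth is unknown. The authors' averaged profiles and FDR lists, which hold their own gene calls, were not used, and their call by random draws was not repeated.

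Occupancy was the length-weighted mean score over fragments overlapping the Ensembl 115 gene body (Python 3.11.15, numpy 2.4.6, pandas 2.3.3). Replicate 1 was set against control 1 and replicate 2 against control 2. For L4 seam cells, the profile of replicate 1 with control 1 was left out because its values had been seen to differ, and replicate 1 against control 2 and replicate 2 against control 1 were used. Groups were compared with limma 3.58.1 in R 4.3.3 (4 group means, residual df 4, prior df 1.24), with Benjamini-Hochberg adjustment over 19983 genes at 0.05, after the script was tested on simulated data. limma offsets genes with no variance. According to the growth protocol, 1 population was split to give the L2 and the L4 animals of a replicate, so the number pairs stages within a cell type. The deviations of same-numbered samples from their group means correlated with r = -0.121 in seam cells and 0.232 in the hypodermis across genes.

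The members and lists were chosen with earlier results of these data known. Named were members above 1 in both replicates of a group, the 3 largest differences in each direction of each contrast, *hog-1* and *qua-1*, and at most 6 other pathway genes by highest group mean. *grl-2*, *grl-15* and other members are also named for their tests or their counts, after their values were seen. Alternatives covered pairing, weighting, shared fragments, fragment number, scaling, thresholds, each replicate and the replicate block.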

Additional observations from a re-analysis of the deposited data

How the results depend on the processing

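Which members are occupied depended most on the threshold and on single profiles. The counts that follow are of members alone, and shares of all genes were not set beside them except where given above. At a ratio of 4 the number occupied was 0, 1, 4 and 4 (L2 seam cells and L4, L2 hypodermis and L4), and at a ratio of 1.5 it was 4 in L2 seam cells. It was 1 there (*grl-10*) with the other pairing of replicates and controls, which gave 8 in the L2 hypodermis and 10 in the L4 hypodermis. With the profiles as deposited it was 0 in L4 seam cells. Leaving out a replicate of the group gave 2 to 8, 10 to 10, 10 to 12 and 7 to 14 members above 1. With each replicate averaged over both controls, replicates share controls and so vary less. Replicate 1 of L4 seam cells had control 2 alone in that setting. The number above 0 by limma in L4 seam cells, the L2 hypodermis and the L4 hypodermis was then 9, 15 and 11. It was 0, 2 and 0 as deposited, and 0, 0 and 1 with equal spread of the profiles. It was 10 in the L2 hypodermis and 6 at L4 after median centring, 5 in the L4 hypodermis with the other pairing, and 2 in L4 seam cells with unshared fragments. Unadjusted, it was 10 in L2 seam cells, then 13, 15 and 13. Leaving out any replicate gave 0 to 4, 0 to 5 and 0 to 3. The number of members that differed was 0 in every comparison and stayed 0 without any replicate. With both controls averaged it was 2 between cell types at L2 and between stages in seam cells (*grl-5* and *grl-28* in each). It was 1 for the interaction (*grl-28*), and the share of all genes called in that setting was not computed. Unadjusted, the number of members that differed was 10 and 3 between cell types at L2 and L4. It was 6 and 1 between stages in seam cells and hypodermis, and 5 for the interaction. With the replicate block it was 0 in every comparison, and with the numbers of seam cells crossed, chosen after seeing the data, it was 0 as well. The difference between cell types at L4 reversed for *grd-14* to -0.10 with both controls and -0.40 as deposited, and ranged from -0.94 to 1.77 without a replicate. It reversed for *grd-7* to -0.03 as deposited and ranged from -0.05 to 0.89 without a replicate. Between stages, *grl-13* in seam cells reversed to 0.02 as deposited and *grl-16* in the hypodermis to -0.15 without replicate 1, against 1.93 without replicate 2. The cause was not tested. Read depth behind each ratio is unknown, and 2 replicates a group limit every test.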

Other observations

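The profile of L4 seam cells that was left out, replicate 1 against control 1, did not resemble the other profiles. Across fragments it correlated with r = 0.996 with log2(control 2/control 1), taken as the difference between the profiles of replicate 2 against each control, and with r = -0.348 with replicate 1 against control 2. These correlations are across fragments of libraries that share samples. In this profile 4 of the 46 members were above 1, with a range over the members from -0.68 to 1.83. With the profiles as deposited, occupancy in the replicates of L4 seam cells correlated across genes with r = -0.393, against 0.716 with the profiles used here.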
